A study of Mus musculus with 6 samples.

Results

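The leukocyte integrins described here are 10 genes that encode the α and β chains of integrins found on blood and tissue leukocytes: Itgam, Itgax, Itgal, Itgb2, Itga4, Itga5, Itga6, Itgb1, Itgav and Itgb7. They were taken by gene symbol from the table of expected counts, in which all 10 were present among 15168 genes, and all 10 passed the filter on low counts that left 11878 genes for testing. The samples were macrophages sorted from full-thickness dorsal wounds of C57BL/6J wild-type female mice on Day 3 after wounding, with 3 samples (A, B and C) from young mice aged 12 weeks and 3 from aged mice aged 24 months. The labels give F4/80 and CD64 as the proteins of the sort, and the study's methods add CD45 and CD11b and describe no step that removed Ly6G-positive cells. CD11b is the product of Itgam, so every sorted cell had been chosen for this integrin chain as a protein. The labels do not say whether a sample was 1 mouse or a pool, and the p-values below measure only the spread between these samples. The genes of the other sort proteins, Ptprc (CD45), Fcgr1 (CD64) and Adgre1 (F4/80), were measured in every sample. Adgre1 was lower in aged macrophages (log2 fold change -0.69, edgeR adjusted p = 0.0293), a call lost without young B (0.0900), young C (0.113), aged A (0.0751) or aged C (0.109).

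Integrins are receptors of the cell surface made of an α chain and a β chain, which together bind matrix proteins or proteins on other cells and link them to the actin cytoskeleton. The β2 chain pairs with αM, αX and αL in leukocytes and serves firm adhesion to endothelium, uptake of complement-coated particles and migration into tissue. The β1 and αv integrins bind fibronectin, laminin, vitronectin and other matrix proteins, of which fibronectin and vitronectin are abundant in the provisional matrix of a wound. The β7 chain pairs with α4 or αE.

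Of the 10 integrin genes, 4 rose in aged macrophages and 0 fell at an adjusted p-value under 0.05 (edgeR quasi-likelihood test, Benjamini-Hochberg adjustment over all genes tested). Those that rose were Itga5 (3.29-fold), Itgal (2.24-fold), Itgb7 (2.11-fold) and Itgam (1.99-fold). Over all genes tested, 9.73% were higher and 7.97% lower by the same rule. At an unadjusted p-value under 0.05, 5 were higher and 1 was lower, against 18.1% and 16.5% of all genes. With a change of more than 2-fold required as well, 3 integrin genes were higher and 0 lower, against 4.59% and 4.2% of all genes (8.79% in either direction), and Itgam at 1.99-fold did not reach 2-fold. The count of 4 was 2 without young C, and the count of 3 was 1 without aged A. With DESeq2 the count past 2-fold was 4, with Itgam at a log2 fold change of 1.005, and with limma-voom it was 2. The 3 aged samples lay above the 3 young samples for 5 of the 10 genes and below them for 0, against 19.2% and 19% of all genes tested (38.2% in either direction). The median log2 fold change of the 10 genes was 0.72, and that of all genes was -0.02.

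**Figure D1:**
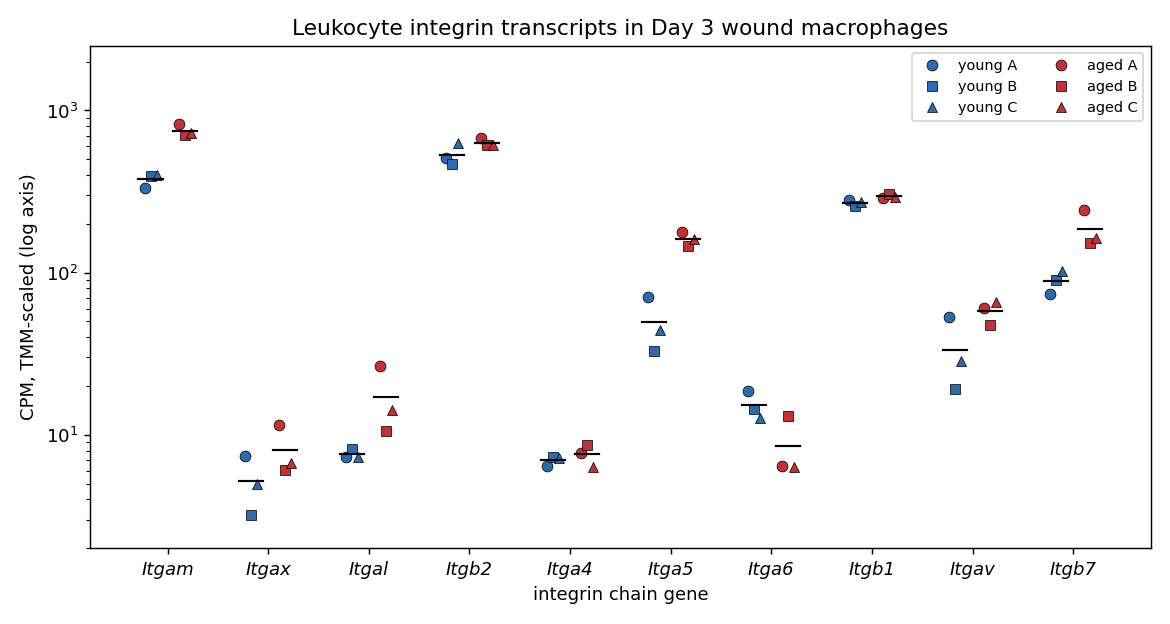
Transcript level of each leukocyte integrin gene as TMM-scaled CPM (log axis) in 3 young (blue) and 3 aged (red) samples of Day 3 wound macrophages, with the marker shape giving the set letter and a black line the group mean. Itgb2, Itgam and Itgb1 are the highest, and the aged points of Itgam, Itgal, Itga5, Itgb1 and Itgb7 lie above all young points.

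Itgam, Itgax and Itgal lie near each other on chromosome 7. In the mm10 genome, Itgam is the gene at chr7:128062640-128118491 and Itgax the gene at chr7:128129547-128150657, both on the plus strand, and 11055 bases separate them. Itgal lies at chr7:127296260-127335138 on the same strand, 727501 bases before Itgam. Itga5 at chr15:103344286-103366763 and Itgb7 at chr15:102215995-102231944 both lie on the minus strand of chromosome 15. The other genes are on the plus strand, with Itgb2 at chr10:77530252-77565708, Itgb1 at chr8:128685654-128733200, Itga6 at chr2:71745616-71858416, Itga4 at chr2:79255426-79333123 and Itgav at chr2:83724397-83806916. The sequences of the 250 bases before the RefSeq gene start were taken from RefSeq on GRCm38.p6, in which 7 of the 10 genes were matched by symbol. Not matched were Itgb2, Itga6 and Itgal, of which Itgal rose. Those of Itgam, Itga5 and Itgb7, which rose together, are printed with that of Itgax, the neighbour of Itgam whose difference did not pass the test. The windows are chr7:128062390-128062639 for Itgam, chr7:128129300-128129549 for Itgax, chr15:103366792-103367041 for Itga5 and chr15:102231936-102232185 for Itgb7, each read 5′ to 3′ on the strand of its gene. RefSeq and GENCODE starts differ for 3 of them, so that the last 3 bases of the Itgax window and the last 9 of the Itgb7 window lie inside the gene as given above, and the Itga5 window ends 28 bases before it. Capitals mark the hexamer GAGGAA, which reads as TTCCTC from the other strand, the core of many sites of the myeloid factor PU.1, and the letters TGANTCA, the core of AP-1 sites.
Itgam: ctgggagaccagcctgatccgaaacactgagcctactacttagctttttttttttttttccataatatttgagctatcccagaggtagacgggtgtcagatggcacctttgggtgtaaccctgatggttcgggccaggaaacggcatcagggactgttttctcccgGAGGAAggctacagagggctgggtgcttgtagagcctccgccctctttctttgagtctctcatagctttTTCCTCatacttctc
Itgax: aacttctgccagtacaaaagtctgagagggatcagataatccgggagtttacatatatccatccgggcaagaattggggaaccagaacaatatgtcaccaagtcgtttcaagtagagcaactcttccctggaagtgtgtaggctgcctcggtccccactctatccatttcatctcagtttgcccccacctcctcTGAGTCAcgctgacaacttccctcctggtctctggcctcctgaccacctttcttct
Itga5: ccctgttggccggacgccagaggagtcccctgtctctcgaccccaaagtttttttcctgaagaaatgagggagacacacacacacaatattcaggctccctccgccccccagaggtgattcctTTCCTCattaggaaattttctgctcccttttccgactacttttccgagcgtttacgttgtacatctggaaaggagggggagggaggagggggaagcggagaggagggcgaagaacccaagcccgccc
Itgb7: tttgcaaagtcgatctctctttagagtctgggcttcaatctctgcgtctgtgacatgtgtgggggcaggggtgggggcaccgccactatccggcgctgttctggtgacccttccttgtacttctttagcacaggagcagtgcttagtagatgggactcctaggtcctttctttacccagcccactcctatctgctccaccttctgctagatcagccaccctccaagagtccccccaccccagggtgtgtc

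Both strands of each window were searched for these motifs and for the core of Sp1 sites. The Itgam window held GAGGAA at 84 to 79 bases before the start and its reverse TTCCTC at 15 to 10 bases, and the Itga5 window held TTCCTC at 127 to 122 bases. The Itgb7 and Itgax windows held neither. Of the matched windows not printed, that of Itgav held GAGGAA at 218 to 213 bases and TTCCTC at 7 to 2 bases, that of Itgb1 held GAGGAA at 9 to 4 bases, and that of Itga4 held neither. The hexamer stands in 23.3% of the 32851 promoter windows of that length in the table. The Itgax window held TGAGTCA at 56 to 50 bases before the start, and TGANTCA stands in 6.75% of all windows. GGGCGG, the core of Sp1 sites, or its reverse CCGCCC was found in Itgam at 47 to 42 bases and in Itga5 at 149 to 144 and 6 to 1 bases, and it stands in 32.7% of all windows. It was also found in the windows of Itgb1 at 151 to 146 bases and Itga4 at 114 to 109 bases, genes whose difference did not pass the test. No motif was shared by the 3 printed windows of genes that rose. A match in these windows is a description of the letters, not of binding.

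Itgam encodes αM, the chain that with β2 forms Mac-1, a receptor for complement fragments, fibrinogen and ICAM-1. In CPM (read counts scaled to library size), its level was 334, 393 and 402 in young samples A, B and C and 822, 702 and 726 in aged samples A, B and C. All aged samples lay above all young samples, and the rise of 1.99-fold had a 95% interval of 1.54 to 2.58 (edgeR adjusted p = 0.00735). Ordered by fold change from the highest rise, Itgam was number 796 of the genes tested. It kept an adjusted p-value under 0.05 when any of the 6 samples was left out, with values between 0.00877 and 0.0450 in edgeR. The annotation gives an overlapping gene, Gm49368, which shares 72.4% of the 50-base words of the longest Itgam transcript. Its counts were between 0.273% and 0.849% of those of Itgam. With the counts of both genes added, an alternative chosen after the data were seen, the log2 fold change was 0.99 (edgeR adjusted p = 0.00738).

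Itgb2 encodes the β2 chain that αM, αX and αL share. It measured 506, 469 and 628 CPM in young and 677, 613 and 611 CPM in aged samples, so young C lay within the aged range. Its young mean was 535 ± 83.4 CPM (SD, n = 3), its aged mean 634 ± 37.6 CPM, and the difference did not pass the test (log2 fold change 0.24, SE 0.17, edgeR adjusted p = 0.347). The 95% interval of its fold change ran from 0.907 to 1.55, so a doubling lay outside it.

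Itgal encodes αL of LFA-1, the lymphocyte and leukocyte receptor for ICAM proteins. It was low in young macrophages at 7.30, 8.15 and 7.33 CPM and measured 26.5, 10.6 and 14.1 CPM in aged macrophages. The aged samples lay above the young, with aged A far from the other aged samples, and Itgal rose 2.24-fold (95% interval 1.38 to 3.63, edgeR adjusted p = 0.0319). The call depended on single samples. Without aged A the log2 fold change was 0.70, against 1.16 with all samples (edgeR adjusted p = 0.0777). Without young B, young C or aged C it was 1.23, 1.14 and 1.29 (edgeR adjusted p = 0.0861, 0.121 and 0.0641).

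Itgax encodes αX, or CD11c, a chain known from dendritic cells and from macrophages of inflamed tissue. It measured 7.36, 3.23 and 4.95 CPM in young and 11.6, 6.11 and 6.67 CPM in aged samples. The groups overlapped, with young A above aged B and aged C, and the fold change of 1.56 had an interval from 0.908 to 2.68 (edgeR adjusted p = 0.224). Sample A was the highest of its age for Itgax. Sample A was also the highest of its age for the summed dendritic cell markers other than the integrins described here (9 of 10 listed were measured, none of them at or under 3 counts in every sample), which were at 60.5, 27.9 and 19.9 CPM in young and 97.0, 33.4 and 45.5 CPM in aged samples. The largest parts of the sum in aged A were Ccr7 at 44.7 and Xcr1 at 34.5 CPM. Other markers peaked elsewhere, with Batf3 highest in young B and aged C, Dpp4 in aged C and Flt3 in young C. Of 7 dendritic cell markers tested, 0 passed the test, against 17.7% of all genes in either direction. The part of dendritic cells in the Itgax values was not tested. In RNA of a sorted population, fewer cells that express a gene and less of its RNA per cell cannot be told apart. The longest Itgax transcript shares 9.61% of its 50-base words with Itgad, which was not among the 15168 genes analysed. How reads were divided between these 2 genes was therefore not measured.

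Of 8 listed markers of inflammatory monocytes, all tested, 3 rose and 0 fell. This was 37.5% of them, while 9.73% of all genes tested were higher and 7.97% lower. Vcan, F10 and Hp rose with log2 fold changes of 2.13, 1.18 and 1.08 (edgeR adjusted p = 0.00136, 0.0152 and 0.0405), as did the 4 integrin genes. Ly6c2, Ccr2 and Plac8, which define these cells, had overlapping samples and log2 fold changes of -0.13, -0.16 and -0.02. The list summed to 1460, 2434 and 3185 CPM in young and 4914, 3575 and 3473 CPM in aged samples. The sums were separated between the ages, but their most abundant gene, Chil3, overlapped (642, 1136 and 1993 CPM in young and 2810, 2586 and 1904 CPM in aged samples). Its log2 fold change was 0.95 (edgeR adjusted p = 0.0820).

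Of 14 neutrophil markers tested (16 listed), 4 rose and 0 fell, or 28.6% of those tested. Over all genes tested, 9.73% were higher and 7.97% lower, also for comparison with the lists below. Cd177 rose 3.07-fold, Cxcr2 2.19-fold, Lcn2 1.99-fold and Retnlg 1.80-fold (edgeR adjusted p = 0.0116, 0.0340, 0.0418 and 0.0393). S100a8, S100a9 and Ly6g did not pass the test (edgeR adjusted p = 0.244, 0.700 and 0.923). The sum of the list was 719, 1222 and 1174 CPM in young and 1592, 930 and 1566 CPM in aged samples, so the ages overlapped. Among aged samples the order A, C, B of this sum was also the order of Itgam, Itgal, Itga5 and Itgb7. Among young samples the sum ran B, C, A, while Itga5 ran A, C, B, Itgam and Itgb7 ran C, B, A, and Itgal, with B the highest, ran B, C, A. T and NK cell markers (9 of 10 listed), whose cells use αL and α4, summed to between 7.48 and 11.03 CPM in young and between 7.20 and 10.2 CPM in aged samples. Cd2 was the largest part, and its members differed. Of 3 tested, 0 passed, with log2 fold changes of -1.80 for Nkg7 (edgeR adjusted p = 0.0586), 0.26 for Cd2 and 0.91 for Trac. Gzma, not tested, had 24, 20 and 9 counts in young and 0 in aged samples. Cd3e, not tested, had 4, 7 and 1 counts in young and 17, 15 and 3 in aged samples. Endothelial markers (6 of 6 listed), whose Pecam1 is also found on leukocytes, summed to between 12.0 and 12.6 CPM in young and between 25.9 and 31.3 CPM in aged samples, and 1 of 3 tested, Pecam1, rose. Lower in aged samples was the sum of B cell markers (3 of 5 listed, 56.0 to 145 against 21.02 to 37.06 CPM, with Ighm, the 1 tested, lower). That sum is nearly all Ighm, while Cd79a and Ms4a1 had at most 9 counts in a sample and overlapped between the ages. Erythroid markers were lower as well (5 of 5 listed, 153 to 490.1 against 41.8 to 152 CPM, with 4 of 5 lower by the test). Skin-resident macrophage markers (10 of 10 listed) overlapped, at 1181 to 1651 and 1146 to 1787 CPM, with 1 of 9 tested, Cbr2, lower. Langerhans cell markers (3 of 3 listed, 4.11 to 15.5 and 5.003 to 12.26 CPM) and fibroblast markers (7 of 7 listed, 25.2 to 41.5 and 12.4 to 121 CPM) overlapped as well. The sort took CD45-positive cells, and the study gives fibroblasts as CD45-negative. Its staining panel for the sort also held antibodies to CD31 (the product of Pecam1), TER119 and TIE2. The study lists the same panel for other flow cytometry, and its methods text does not state whether the sort excluded cells bound by these. The part of these markers' cells in the integrin values was not tested.

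Itga5 encodes α5, which pairs with β1 to form the classical fibronectin receptor. It measured 71.0, 32.7 and 44.2 CPM in young and 179, 146 and 162 CPM in aged samples. The lowest aged sample stood above the highest young sample by a wide margin. The mean rose from 49.3 ± 19.7 to 162 ± 16.4 CPM (SD, n = 3), which was 3.29-fold with a 95% interval of 2.21 to 4.90 (edgeR adjusted p = 0.0045). By fold change Itga5 was number 161 of the genes tested, at percentile 98.6. Its adjusted p-value stayed between 0.00128 and 0.0446 when each of the 6 samples was left out in turn.

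Itgb1 encodes the β1 chain, the partner of α4, α5, α6 and αv. It measured 283, 256 and 274 CPM in young and 287, 307 and 291 CPM in aged samples. The aged samples lay above the young by a narrow gap, and the fold change was 1.09 with a 95% interval of 0.864 to 1.37 (edgeR adjusted p = 0.594). Itgb1 thus had separated samples without a difference that passed the test.

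Itga4 encodes α4, which with β1 binds VCAM-1 and fibronectin and with β7 binds MAdCAM-1. It was at 6.47, 7.27 and 7.20 CPM in young and 7.78, 8.66 and 6.30 CPM in aged samples. Aged C was the lowest of the 6, the groups overlapped, and the fold change was 1.09 (95% interval 0.764 to 1.54, edgeR adjusted p = 0.746). Exons of Itga4 overlap those of Cerkl, and the sources used here do not state whether reads were counted by strand.

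Itga6 encodes α6, a laminin receptor chain that is abundant in basal keratinocytes. It measured 18.8, 14.4 and 12.7 CPM in young and 6.45, 12.99 and 6.30 CPM in aged samples. Aged B lay within the young range and the other aged samples lay below it. The log2 fold change was -0.83 (standard error, SE, 0.30) with an unadjusted p-value of 0.0198 and an adjusted p-value of 0.0804 in edgeR, so it did not pass the test. Without aged B it was -1.25 with an edgeR adjusted p-value of 0.0164, and limma-voom with quality weights gave -0.89 with 0.0282. Keratinocyte markers other than Itga6 (9 of 10 listed were measured) summed to 3.43, 1.94 and 2.05 CPM in young and 9.11, 189 and 3.34 CPM in aged samples, and aged B, the highest aged sample for Itga6, was the highest for these as well. The tested ones, Krt14 and Sfn, both passed the test with higher aged means (edgeR adjusted p = 0.0259 and 0.0329). The ages overlapped for Sfn, at 2.66, 0.997 and 1.32 CPM in young and 7.71, 16.0 and 2.04 CPM in aged samples. Krt14 measured 0.771, 80.2 and 0.865 CPM in aged A, B and C. The sort took CD45-positive cells, and the study counts keratinocytes among non-immune cells, which lack CD45. Krt17 was at 580 counts in aged B and at most 3 in any other sample. The part of keratinocytes in the Itga6 values was not tested.

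Itgav encodes αv, the chain of the vitronectin receptors, which also bind latent TGF-β. It measured 53.2, 19.1 and 28.4 CPM in young and 60.8, 47.6 and 65.8 CPM in aged samples. Young A lay above aged B, and the other young samples lay below all aged samples. The fold change of 1.73 (95% interval 1.06 to 2.81) had an unadjusted p-value of 0.0311 and an adjusted p-value of 0.106 in edgeR. Without young A the log2 fold change was 1.30 with an edgeR adjusted p-value of 0.00543, and limma-voom with quality weights gave 1.02 with 0.0113. Exons of Itgav overlap the antisense gene Gm13684, and reads of the pair cannot be told apart if the counting did not use strand.

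Itgb7 encodes β7, known from lymphocytes that home to the gut and from mast cells. It measured 73.6, 89.6 and 103 CPM in young and 244, 153 and 163 CPM in aged samples. All aged samples lay above the young, with aged A the highest, and Itgb7 rose 2.11-fold (95% interval 1.51 to 2.94, edgeR adjusted p = 0.0129). Without young C the log2 fold change was 1.19, against 1.08 with all samples, and the edgeR adjusted p-value was 0.0538. The adjusted p-value was under 0.05 in the other 5 fits that left out a sample. Mast cell markers (6 of 6 listed) summed to 95.2, 46.9 and 25.6 CPM in young and 64.2, 1.02 and 0.741 CPM in aged samples, lower in aged B and aged C than in any young sample. Itgae, the other α partner of β7, was at between 1 and 6 counts in every sample and was not tested. The longest transcripts of Itgb7, Itgal, Itga5, Itgb1 and Itgav share 0% of their 50-base words with other genes, and other transcripts were not searched. Those of Itga4 share 10.9%, Itga6 6.50% and Itgb2 1.16%, so counts of these 3 are less certain to that extent. Itgav has the exon overlap with Gm13684 given above.

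**Figure D2:**
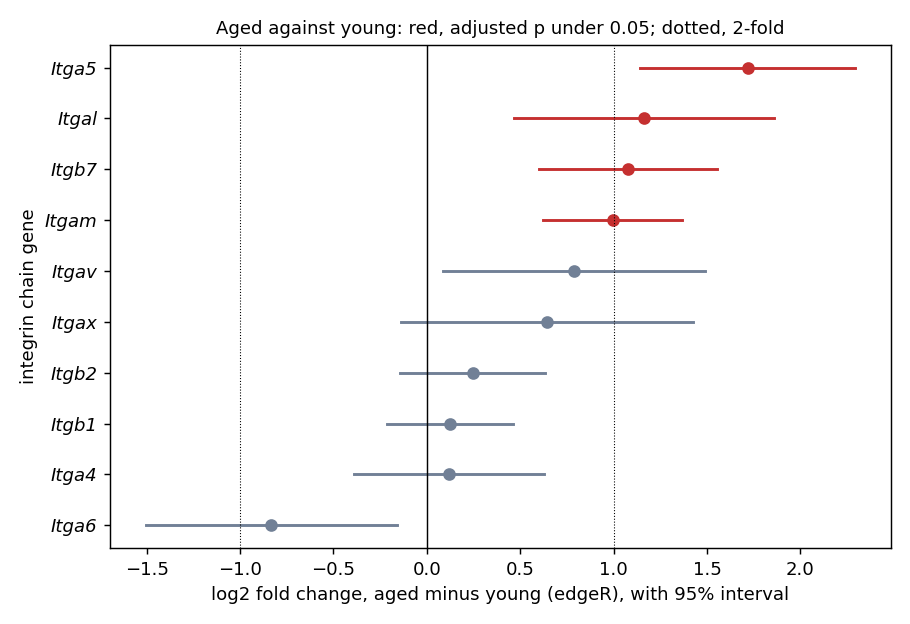
Log2 fold change of the 10 leukocyte integrin genes, aged minus young, with 95% intervals from the edgeR fit of 3 against 3 samples. Red marks an adjusted p-value under 0.05 and dotted lines mark 2-fold. Itga5 stands highest at 1.72 and Itga6 lowest at -0.83, and the intervals of Itgb2, Itga4, Itgb1 and Itgax cross 0.

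Ratios of counts were compared within each sample, which does not depend on the scaling between libraries, for 8 pairs of α and β chains that can form a receptor and for 3 pairs of chains that do not (Itgb7 to Itgb1, Itgam to Itgax and Itgam to Itgal). In 5 of 11 pairs the aged and young samples did not overlap. Each of these 5 had p = 0.1 in a two-sided exact permutation test, the smallest that 3 against 3 samples allow, and p = 0.22 after Benjamini-Hochberg adjustment over the 11 pairs, so none passed a threshold of 0.05. The ratios are of counts and are compared between ages only, since transcript lengths differ.

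The ratio of Itgam to Itgb2 was 0.661, 0.837 and 0.640 in young and 1.21, 1.15 and 1.19 in aged samples, or 1.67-fold higher in the aged mean. The ratio of Itga5 to Itgb1 was 0.251, 0.128 and 0.162 in young and 0.623, 0.476 and 0.556 in aged samples, 3.17-fold higher. The aged samples were thus closer to each other than to any young sample in both pairs. Itga6 to Itgb1 went the other way, at 0.0665, 0.0562 and 0.0467 in young and 0.0226, 0.0424 and 0.0218 in aged samples. Itga4 to Itgb7 was between 0.0705 and 0.0882 in young and between 0.0320 and 0.0570 in aged samples. Itgb7 to Itgb1 was between 0.261 and 0.375 in young and between 0.497 and 0.851 in aged samples, so β7 transcripts were more abundant relative to both α4 and β1 in aged samples.

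For the other 6 pairs the ages overlapped. The mean log2 ratio, aged minus young, was 0.41 for Itgax to Itgb2 (exact permutation p = 0.4), 0.80 for Itgal to Itgb2 (p = 0.2), 0.78 for Itgav to Itgb1 (p = 0.2) and -0.02 for Itga4 to Itgb1 (p = 0.9). Between α chains of the β2 family it was 0.33 for Itgam to Itgax (exact permutation p = 0.7) and -0.06 for Itgam to Itgal (p = 0.9). Itgam made up 95.8% to 97.2% of the summed counts of the αM, αX and αL genes in young samples and 95.6% to 97.7% in aged samples.

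**Figure D3:**
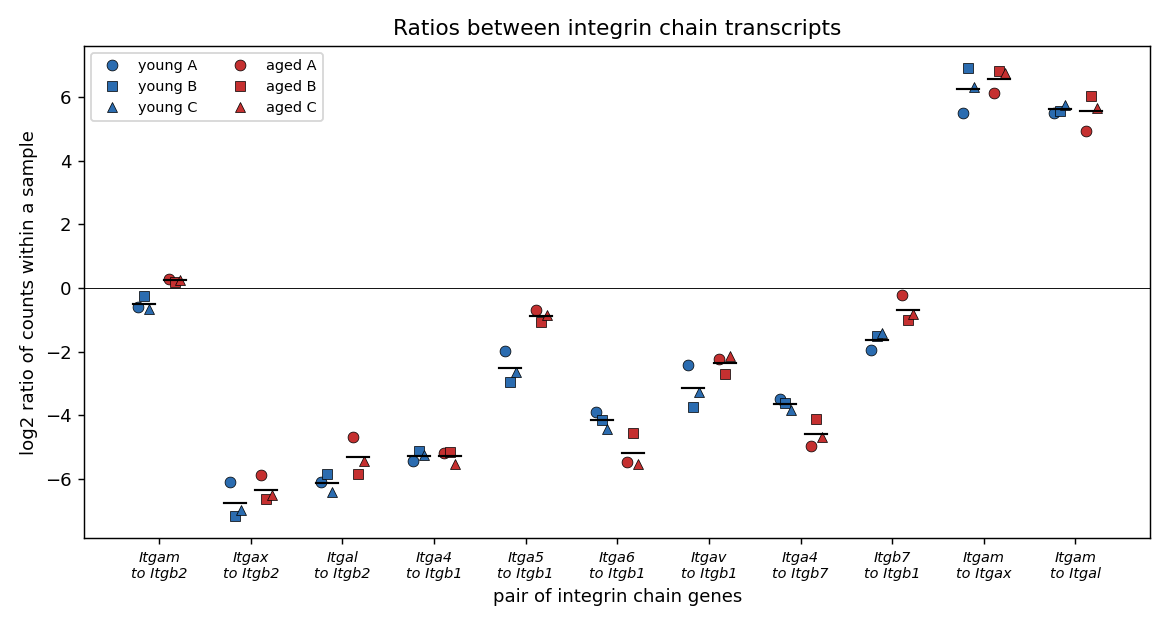
Log2 ratio of the counts of integrin chain genes within each sample for 11 pairs, in 3 young (blue) and 3 aged (red) samples, with the marker shape giving the set letter and a black line the group mean. The ages do not overlap for 5 pairs, with Itga5 to Itgb1 the furthest apart at a difference of 1.66.

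Summed over the 10 genes, integrin chain transcripts amounted to between 1292 and 1512 CPM in young and between 2006 and 2323 CPM in aged samples. Itgam held 24.6% to 30.4% of these counts in young samples and 35.0% to 35.4% in aged samples. The share of Itgb2 was 36.3% to 41.6% in young and 29.1% to 30.5% in aged samples. Both shares were separated between the ages, with that of Itgam higher and that of Itgb2 lower in aged macrophages.

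Levels of different chains were compared as CPM per kilobase of the longest transcript of each gene in the GENCODE M21 annotation. In young macrophages Itgb2 stood highest at 180.0 CPM per kb, followed by Itgam at 80.4 and Itgb1 at 71.0 CPM per kb, whose sample ranges overlapped. Itgb7 followed at 33.0, Itga5 at 11.2, Itgav at 4.76 and Itga6 at 3.55 CPM per kb, and the ranges of Itgav overlapped those of Itga5 and Itga6. Itgal at 1.45, Itgax at 1.28 and Itga4 at 0.715 CPM per kb were the lowest, with Itgal and Itgax overlapping. The range thus spanned from a β chain shared by several integrins to α chains known best from lymphocytes and dendritic cells.

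In aged macrophages Itgb2 stood at 213 and Itgam at 160.2 CPM per kb, and here Itgam was separated from Itgb1 at 77.3 CPM per kb. Itgb7, at 69.6 CPM per kb, overlapped Itgb1, from which it was separated in young macrophages. Itga5 at 36.7 CPM per kb was separated from Itgav at 8.23 CPM per kb. Itgal, Itgax and Itga6 followed at 3.27, 2.01 and 1.99 CPM per kb, with overlap between neighbours, and Itga4 was again the lowest at 0.776 CPM per kb. With the mean transcript length in place of the longest, Itgb2 was first and Itga4 last in both ages, Itgb1 stood ahead of Itgam in young macrophages (134.0 and 132.5 CPM per kb) and Itgb7 ahead of Itgb1 in aged macrophages (215 and 146 CPM per kb).

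**Figure D4:**
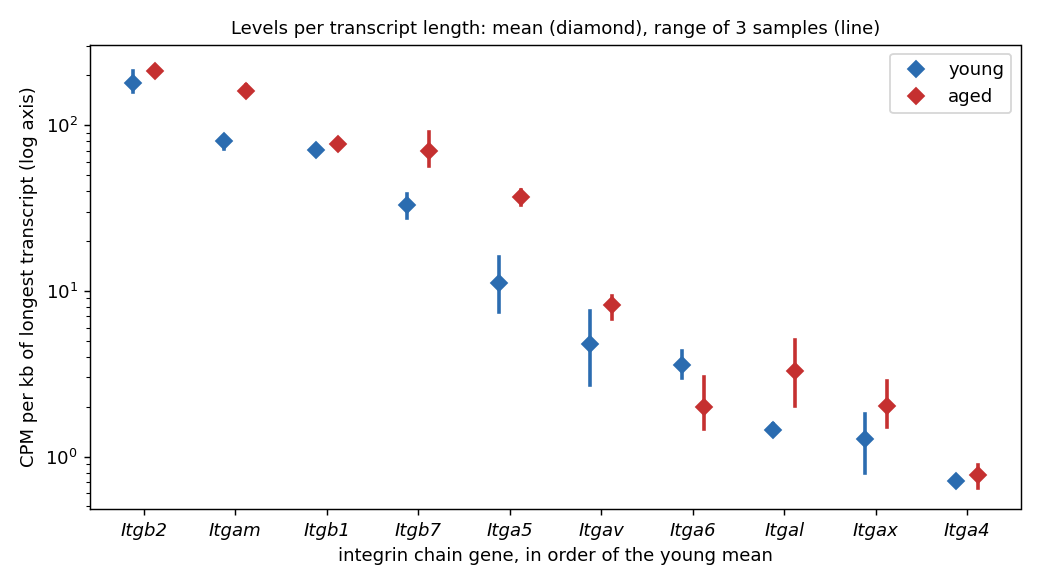
Level of each integrin gene in CPM per kilobase of its longest transcript (log axis), in order of the young mean, for young (blue) and aged (red) macrophages. Diamonds are means and lines the range of 3 samples. Itgb2 is highest at 180.0 CPM per kb in young and 213 in aged samples and Itga4 lowest at 0.715 and 0.776.

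The genes whose log2 CPM followed the integrins most closely over the 6 samples are given as a description, since all genes that differ between the ages share part of this pattern. For Itgam they were Irak3 (Pearson r = 0.998), an inhibitor of Toll-like receptor signalling, and Plekhg1 (r = 0.997). For Itga5 they were Ppp1r15b (r = 0.999) and Capza1 (r = 0.999), which encodes an actin capping protein. Itgb7 was followed by Prdx6 (r = 0.997) and Pef1 (r = 0.994), with the neutrophil marker Cd177 next (r = 0.991, named after its value was seen), and Itgal by Gripap1 (r = 0.996) and Lrg1 (r = 0.991). Among the integrin genes themselves, the closest pair was Itgam and Itgb7 (r = 0.967).

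Beyond the 10 chains, 111 genes of the integrin pathway were listed from general knowledge of its biology, of which 82 were tested. Of these, 14 rose and 3 fell in aged macrophages (edgeR, Benjamini-Hochberg adjusted p-value under 0.05), which was 20.7% of those tested against 17.7% of all genes tested in either direction. That share in either direction is near the background. By direction the calls were less even than over all genes tested, of which 9.73% were higher and 7.97% lower. Their median log2 fold change was 0.29. The count that rose was 7 without young B, 3 without young C and 8 without aged C, and the count that fell was 1, 0 and 0.

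Among 6 other integrin chains tested of 16 listed, 2 rose and 0 fell (median log2 fold change 0.59). This was 33.3% of those tested, against 17.7% of all genes tested in either direction and 9.73% higher. Itga1, whose α1 chain binds collagen with β1, measured 9.90, 10.3 and 15.2 CPM in young and 42.5, 35.5 and 37.5 CPM in aged samples, 3.27-fold higher (log2 fold change 1.71, SE 0.21, edgeR adjusted p = 0.00202). It passed the test in all 6 fits that left out a sample. Itgb8, which pairs with αv, was near 1 CPM or below in young samples (0.498, 0.176 and 0.594 CPM) and at 2.38, 4.65 and 1.05 CPM in aged samples, with an edgeR adjusted p-value of 0.0223. The call of Itgb8 was lost without young B (0.0785), young C (0.0818) or aged B (0.0687), and with limma-voom, and Itgb8 was not tested when at least 10 counts in every sample were required. Of further β chains that can pair with αv, Itgb5 at 102.1 and 122.9 CPM and Itgb3 at 1.15 and 2.22 CPM (means of each age), had edgeR adjusted p-values of 0.227 and 0.287.

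Among 15 of 24 ligands and counter-receptors tested, 5 rose and 1 fell (median 0.52), or 40% against 17.7% of all genes in either direction. Fn1, which encodes fibronectin, the ligand of α5β1, rose from 282, 331 and 334 CPM in young to 607, 696 and 541 CPM in aged samples (log2 fold change 0.96, SE 0.17, edgeR adjusted p = 0.00878; 0.0536 without young C). Thbs1, which encodes thrombospondin, measured 6953, 2011 and 2597 CPM in young and 18894, 15196 and 16472 CPM in aged samples (log2 fold change 2.13, edgeR adjusted p = 0.0115; 0.0688 without young C). Platelet and megakaryocyte markers, from cells that hold thrombospondin and P-selectin, summed over 4 of 6 listed to between 1124 and 1699 CPM in young and to 1417, 3911 and 2339 CPM in aged A, B and C, and their part was not tested. That sum is nearly all Ppbp and Pf4, of which Ppbp rose (log2 fold change 2.02, edgeR adjusted p = 0.00967) and Pf4 did not pass the test (-0.31, 0.477), while Itga2b and Gp1bb had at most 13 counts in a sample. Cdh1, which encodes E-cadherin, the ligand of αEβ7, had a log2 fold change of 2.41 from 1.83, 1.70 and 1.52 CPM in young to 9.95, 10.4 and 6.67 CPM in aged samples (edgeR adjusted p = 0.00196), and the call was kept without each sample in turn.

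Edil3 rose from 4.66 to 11.1 CPM in the means and Tgfb1 from 57.3 to 115 CPM (edgeR adjusted p = 0.0160 and 0.0149). Both lost the call without young B (0.0549 and 0.0578) and without young C (0.0847 and 0.0845), and Edil3 also without aged C (0.0694). Spp1, which encodes osteopontin, a ligand of αv and α4 integrins, fell from 8201, 11233 and 16086 CPM to 5393, 7217 and 6989 CPM (log2 fold change -0.86, edgeR adjusted p = 0.0476), and the call held only without young A among the fits that left out a sample. Icam1, the ligand of αL and αM, had a young mean of 186 CPM and an aged mean of 234 CPM (edgeR adjusted p = 0.469). Vcam1, the ligand of α4β1, was at 25.2 and 36.1 CPM (edgeR adjusted p = 0.493).

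Genes that control the activation of integrins from inside the cell were listed together, activators such as talin and kindlin with inhibitors such as Sharpin and Sipa1. Of 17 tested (23 listed), 0 passed the test in either direction, and the median log2 fold change was -0.17. At an unadjusted p-value under 0.05, 3 were higher and 1 was lower in edgeR, against 18.1% and 16.5% of all genes tested. DESeq2, limma-voom, DESeq2 size factors in edgeR, the filter of at least 10 counts in every sample, and the fits without young A or without aged B each called 1 as higher. Tln1, which encodes talin, the protein that binds the tail of β chains, measured 64.6, 51.9 and 55.6 CPM in young and 96.3, 99.4 and 66.2 CPM in aged samples (edgeR adjusted p = 0.0521). Rap1b, a small GTPase upstream of talin and the most abundant gene of this list, was at 1449 and 1872 CPM in the young and aged means (edgeR adjusted p = 0.185). Fermt3, which encodes kindlin-3, was at 231 and 226 CPM (edgeR adjusted p = 0.928).

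Of 30 tested genes of integrin signalling and adhesion sites (32 listed), 4 rose and 0 fell (median 0.30). This was 13.3%, against 17.7% of all genes in either direction and 9.73% higher. At an unadjusted p-value under 0.05, 11 were higher and 1 was lower in edgeR, against 18.1% and 16.5% of all genes tested. The count that rose was 7 with DESeq2, 10 with limma-voom, 7 without young A and 1 without young C or without aged C. Tes, which encodes testin, a protein of focal adhesions, rose from 120 to 422 CPM in the means (log2 fold change 1.81, edgeR adjusted p = 0.00284) and passed without each sample in turn. Syk, a tyrosine kinase downstream of β2 integrins and Fc receptors, measured 98.7, 47.8 and 53.3 CPM in young and 177, 133 and 123 CPM in aged samples (log2 fold change 1.11, edgeR adjusted p = 0.0237). Its call was lost without young B (0.0861), young C (0.111), aged A (0.0587) or aged C (0.0543). Vav3, a signalling protein of leukocytes, and Lcp2, the adaptor SLP-76, had log2 fold changes of 0.96 and 0.79 (edgeR adjusted p = 0.0152 and 0.0223), and both lost the call without young C (0.0818 and 0.0973) and without aged C (0.0546 and 0.0865).

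Tetraspanins and CD47, which associate with integrins in the membrane, numbered 10 tested genes, of which 1 rose and 2 fell (median -0.13). This was 30% of them, against 17.7% of all genes tested in either direction. Cd53 rose with a log2 fold change of 0.72 from 1314 to 2169 CPM, and Cd63 fell from 507 to 266 CPM and Tspan4 from 97.9 to 48.0 CPM, with log2 fold changes of -0.93 and -1.03 (edgeR adjusted p = 0.0237, 0.0141 and 0.0242). All 3 lost the call without young C (0.0936, 0.0704 and 0.0847) and without aged C (0.0922, 0.0624 and 0.0986), and Cd53 and Tspan4 also without young B (0.0770 and 0.0861) and aged A (0.0550 and 0.0627). Of 4 tested selectins and selectin ligands (6 listed), 2 rose and 0 fell (median 0.76). This was 50%, against the same 17.7% in either direction and 9.73% higher. Selp, which encodes P-selectin, was at 1.66, 1.64 and 0.793 CPM in young and 3.43, 16.4 and 3.40 CPM in aged samples (edgeR adjusted p = 0.0259; 0.0711 without aged B, 0.0770 without young B and 0.113 without young C). Glg1, a ligand of E-selectin, had a log2 fold change of 0.57 (edgeR adjusted p = 0.0367), and the call held only without young A among the fits that left out a sample.

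**Figure D5:**
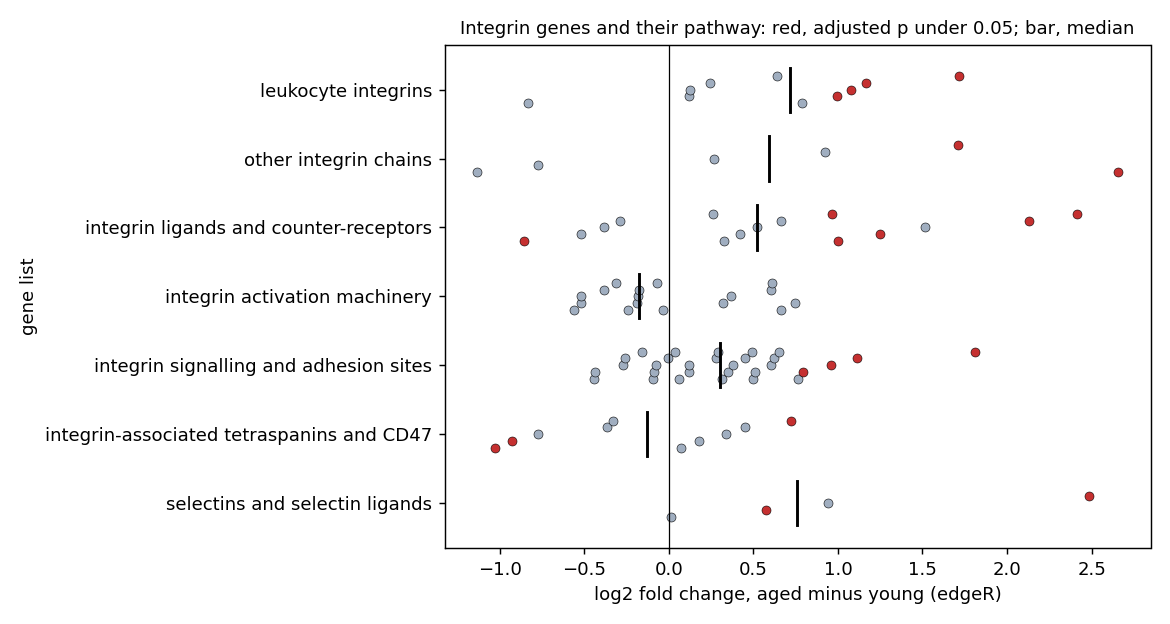
Log2 fold change, aged minus young, of every tested gene of the leukocyte integrin list and of 6 lists of other integrin pathway genes (1 point a gene, red with an adjusted p-value under 0.05 in edgeR, vertical bar at the list's median). The median of the integrin genes is 0.72, and that of the activation machinery, with 0 genes that passed, is -0.17.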

How the data were processed

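The authors sorted macrophages from Day 3 wounds, amplified cDNA with a SMART-Seq low-input kit, aligned paired reads with STAR 2.7.3a to mm10, and quantified Ensembl 102 transcripts in Partek Flow. The deposited values are expected counts per gene, not normalised, for genes with at least 10 counts in total. Totals ran from 15270103 to 17927483 per sample, and 1 count was worth 0.0553 to 0.0701 CPM. A second deposited table holds the authors' DESeq2 comparison (normalised values, p-values and fold changes) and was not used.

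Expected counts, of which 30.32% to 33.85% per sample were not whole, were rounded and tested in R 4.3.3 with edgeR 4.0.16 (TMM factors 0.904 to 1.11, filterByExpr, quasi-likelihood test, Benjamini-Hochberg over 11878 genes). The biological coefficient of variation was 0.239. Intervals of fold changes use the fit's standard errors. Ratios had 0.5 counts added, and log2 CPM a prior count of 2. DESeq2 1.42.0 and limma-voom (limma 3.58.1) were alternatives. Lengths and coordinates came from GENCODE M21 (GRCm38, the same build as mm10). The integrin genes, pathway lists and marker lists were chosen with earlier results of these data known. All 10 integrin genes are named. From each pathway list the genes that passed were named, up to the 3 of largest change in each direction, or the most abundant gene where none passed. Itgb3, Itgb5, Itgae, Icam1, Vcam1, Tln1, Fermt3 and further genes that passed were named after their values were seen.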

Additional observations from a re-analysis of the deposited data

How the results depend on the processing

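The log2 fold changes of all 10 integrin genes kept their sign in every alternative run. Itgam, Itgal, Itga5 and Itgb7 kept an adjusted p-value under 0.05 with DESeq2 size factors, DESeq2, limma-voom, no filter, at least 10 counts in every sample and the replicate block. When each sample was left out in turn, the integrin genes that were higher numbered 2 to 5 (2 without young C) and those that were lower 0 to 1. With 2-fold required these were 1 to 4 (1 without aged A) and 0 to 1. limma-voom called 1 integrin gene as lower, and glmTreat, with 1.5-fold as the threshold of the test, called 1 as higher. For the other pathway genes the counts were 3 to 19 higher and 0 to 4 lower without single samples, limma-voom called 21 as higher and 5 as lower, and DESeq2 called 20 as higher and 3 as lower. Non-overlapping chain ratios numbered 5 to 7 without single samples. With the mean transcript length, 6 of 10 genes kept their rank of level in young and 6 in aged macrophages. Over all genes tested, 3646 were called by limma-voom and, without young C or aged C, 218 and 545, against 2103. The cause of these shifts was not tested.

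Whether the set letters pair the samples is not stated by the labels, and correlations from 3 samples an age cannot decide it. The correlations of the deviations of same-letter samples were 0.18 for A, -0.02 for B and 0.11 for C. Young A correlated best with aged A, while young B and young C each correlated better with an aged sample of another letter. With the set letter as a replicate block, 2114 genes were called over the whole table and 5 integrin genes were higher, the added gene being Itgav (log2 fold change 0.90, edgeR adjusted p = 0.0365).

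With 3 samples an age, the design could not bring the permutation test of a ratio under 0.1. Itgax had the lowest count of the 10 genes in any single sample, at 55 in young B, and its interval ran from 0.908 to 2.68-fold.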
